A study of Homo sapiens with 12 samples.

Results

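The tipifarnib response of SKOV3, a human ovarian cancer cell line, was measured by RNA sequencing in 4 of the 12 libraries of the series. They were chosen by their labels, as the SKOV3 cells that received tipifarnib and the SKOV3 cells that received its solvent DMSO. Tipifarnib was given at 20 µM for 48 h. One tipifarnib library came from SKOV3 cells with a control lentiviral vector (genotype labelled WT) and the other from SKOV3 cells with a lentiviral vector for full-length MYC, and the DMSO libraries had the same pair of vectors. All 4 cultures were therefore virus-transduced lines, the MYC cells being a stable puromycin-selected line that overexpresses MYC. Each vector and treatment had 1 library, and the labels show no repeat culture, so a p-value reflects no more than the variation among these libraries, part of which may be technical. The other 8 libraries were A549 lung cells with tipifarnib at 10 µM or DMSO and MDA-MB-231 breast cells with tipifarnib at 20 µM or DMSO, with the same vectors and time.

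Tipifarnib blocks farnesyltransferase, the enzyme that attaches a farnesyl lipid to proteins ending in a CAAX motif, among them the RAS proteins, lamins, some small GTPases related to them and kinetochore proteins. NRAS can receive a geranylgeranyl lipid in its place when the enzyme is blocked, while HRAS cannot. Both lipids are made from mevalonate, the pathway that also gives cholesterol and is controlled by SREBP transcription factors. SKOV3 is known for an amplified ERBB2 receptor gene.

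Gene counts per SKOV3 library were 21164503 to 24898298, and mitochondrial genes took 4.12% and 3.73% of them in tipifarnib and 3.65% and 5.59% in DMSO. Levels are given in CPM, that is counts scaled to library size, and wherever 2 values stand for a treatment the control-vector library comes before the MYC-vector library. ERBB2 had 2835 and 1167 CPM in tipifarnib, against 5735 and 2570 CPM in DMSO, while no A549 or MDA-MB-231 library had more than 131 CPM. The ovarian lineage factor PAX8 was at 172 to 265 CPM in SKOV3 and at most 8.45 CPM in the other lines. WT1 and MUC16, also listed as ovarian markers, were at or under 1.75 CPM in each SKOV3 library, and KRT7, KRT8 and KRT18 were lower in SKOV3 than in A549. The 8 leukocyte markers summed to 0.156 and 0.492 CPM in tipifarnib and to 0.303 and 0.783 CPM in DMSO.

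Tipifarnib changed 2414 of 17913 genes tested in SKOV3 cells. In all 1140 genes (6.36% of those tested) rose and 1274 (7.11%) fell, and 515 and 583 of these changed at least 2-fold. These shares are the background for the counts of every gene list below. Groups of stress response, amino acid, sterol, growth factor feedback and inflammatory genes rose, and groups of cell division and DNA replication genes fell. Changes are log2 fold changes, tipifarnib over DMSO, with the standard error of the fit. Genes are said to rise or fall at a p under 0.05 by edgeR's quasi-likelihood method, after Benjamini-Hochberg adjustment over all 17913 genes. In that fit the tipifarnib and DMSO libraries are paired by vector, and the spread is pooled over the 3 lines.

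Both pairs moved alike in direction for nearly every called gene: 2408 of the 2414 had the same sign in the control-vector and the MYC-vector pair. The fit combines these same pairs, so a call nearly requires equal signs, and this count is no separate support. Across the 12271 genes with a mean of at least 1 on the log2 CPM scale, the changes of the pairs correlated with r = 0.76, a description across genes of libraries that share a line and a treatment. Their standard deviation was 0.69 in the MYC-vector pair and 0.53 in the control-vector pair, and 1660 of the called genes had the larger change in the MYC-vector pair. The number of calls depended on having both pairs. With 1 SKOV3 library left out, the change comes from the other vector's pair alone, and the spread from the other lines. Leaving out either library of a vector is therefore nearly the same test, here and in the lists below. It was 1471 without the control-vector tipifarnib library, 1463 without the control-vector DMSO library, 519 without the MYC-vector tipifarnib library and 502 without the MYC-vector DMSO library, and it was 288 with the vector left out of the model.

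**Figure D1:**
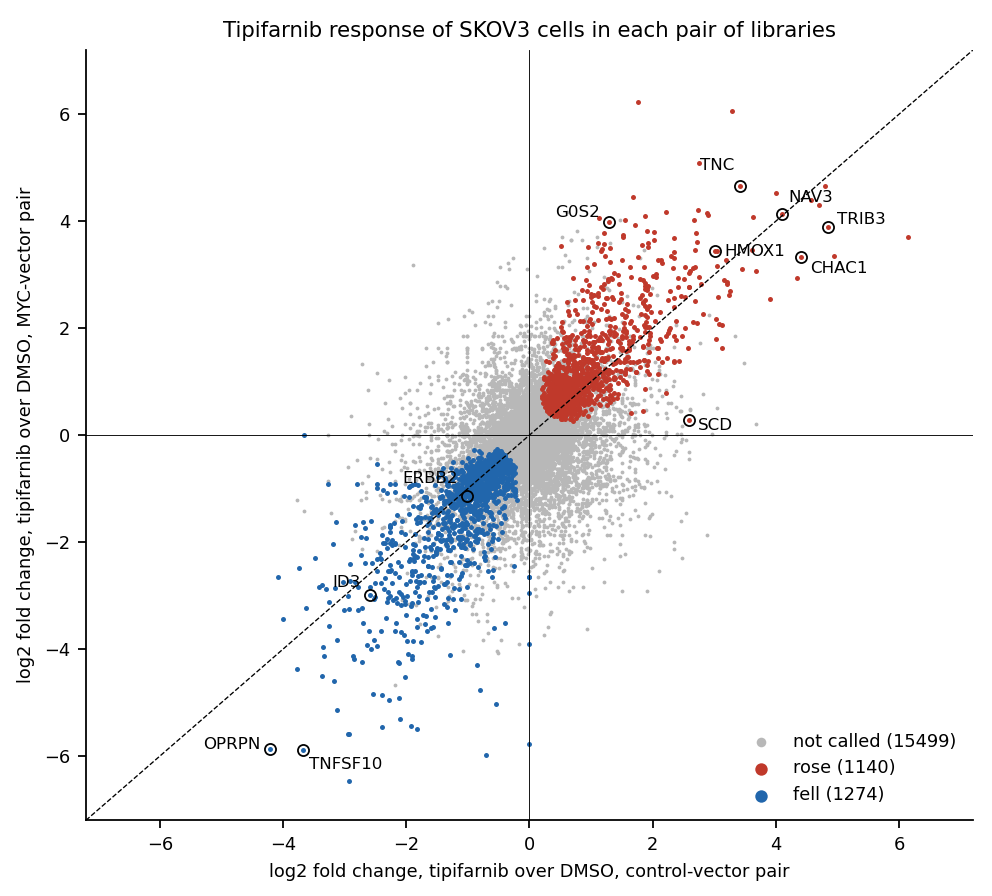
Log2 fold change of each gene tested, tipifarnib over DMSO, in the control-vector pair (horizontal axis) and the MYC-vector pair (vertical axis) of SKOV3 libraries. Red and blue points are the 1140 genes that rose and the 1274 that fell, grey points the others, the dashed line marks equal change, and circled genes are named. Most coloured points lie in the upper right and lower left, ERBB2 sits on the line, and G0S2 and SCD sit far from it.

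MYC itself (ENSG00000136997.10) had 99.7 and 609 CPM in tipifarnib, against 48.3 and 492 CPM in DMSO. These libraries differ more by vector than by treatment, and the change of 0.67 ± 0.26 (adjusted p = 0.129) did not pass the test, although it passed in SKOV3 libraries alone (adjusted p = 0.0263), without A549 (adjusted p = 0.0159) and with no low count filter (adjusted p = 2.11e-06). Counts from the vector and from the chromosomal gene cannot be told apart. The subunits of the drug's target enzyme did not pass either. FNTA (ENSG00000168522.8), the subunit shared with the enzyme that adds the geranylgeranyl lipid, had 41.8 and 49.8 CPM in tipifarnib, against 40.5 and 40.2 CPM in DMSO, a change of 0.18 ± 0.13 (adjusted p = 0.411). Its tipifarnib libraries both lay above both DMSO libraries. The catalytic subunit FNTB (ENSG00000257365.3) had 7.003 and 5.77 CPM in tipifarnib, against 10.1 and 8.42 CPM in DMSO, a change of -0.54 ± 0.19 (adjusted p = 0.0993), with both tipifarnib libraries below both DMSO libraries.

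Among genes with a mean of at least 1 on the log2 CPM scale, the 12 largest rises were led by TRIB3, a pseudokinase induced in stressed cells, which had 168 and 339.8 CPM in tipifarnib, against 5.76 and 22.7 CPM in DMSO. This is a change of 4.34 ± 0.57 (adjusted p = 0.00143), or 20.3-fold, and both tipifarnib libraries lay above both DMSO libraries. NAV3, a microtubule-binding protein, had 9.57 and 10.6 CPM in tipifarnib, against 0.476 and 0.522 CPM in DMSO and changed by 4.32 ± 0.34. The matrix glycoprotein tenascin C (TNC) had 54.4 and 48.0 CPM in tipifarnib, against 4.98 and 1.83 CPM in DMSO and changed by 4.005 ± 0.29. In each of these 3 genes the lowest tipifarnib library was several times the highest DMSO library. CXCL8, a chemokine that attracts neutrophils, had 30.5 and 18.5 CPM in tipifarnib, against 2.38 and 1.01 CPM in DMSO, a change of 3.90 ± 0.29. CHAC1, an enzyme that degrades glutathione, had 24.8 and 62.7 CPM in tipifarnib, against 1.08 and 6.15 CPM in DMSO, a change of 3.77 ± 0.83. The highest DMSO level of CHAC1 was in MYC-vector cells, as was its highest tipifarnib level.

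PHGDH, the first enzyme of serine synthesis, had 93.2 and 254 CPM in tipifarnib, against 4.51 and 33.2 CPM in DMSO, a change of 3.55 ± 0.40 (adjusted p = 0.000797). INHBA, the activin A subunit, had 28.2 and 7.82 CPM in tipifarnib, against 3.68 and 0.373 CPM in DMSO and changed by 3.44 ± 0.45. PHGDH was higher with the MYC vector and INHBA higher with the control vector in each treatment, and neither gene's groups overlap. The stress cytokine GDF15 had 37.7 and 76.0 CPM in tipifarnib, against 3.38 and 8.68 CPM in DMSO, a change of 3.28 ± 0.33. Heme oxygenase (HMOX1) had 191 and 365 CPM in tipifarnib, against 23.6 and 33.4 CPM in DMSO, a change of 3.24 ± 0.21, and the stress-induced protein NUPR1 had 167 and 237 CPM in tipifarnib, against 11.0 and 40.4 CPM in DMSO, a change of 3.20 ± 0.50. The SH2 domain protein SH2D5 changed by 3.11 ± 0.23 and the iron-chelator binding protein LCN2 by 3.09 ± 0.40, and in both genes the tipifarnib libraries lay above the DMSO libraries. All 12 rises passed with adjusted p of at most 0.0154. CHAC1 did not pass when any 1 of the 4 libraries was left out (adjusted p = 0.0922 to 0.114), and the other 11 passed in each case.

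**Figure D2:**
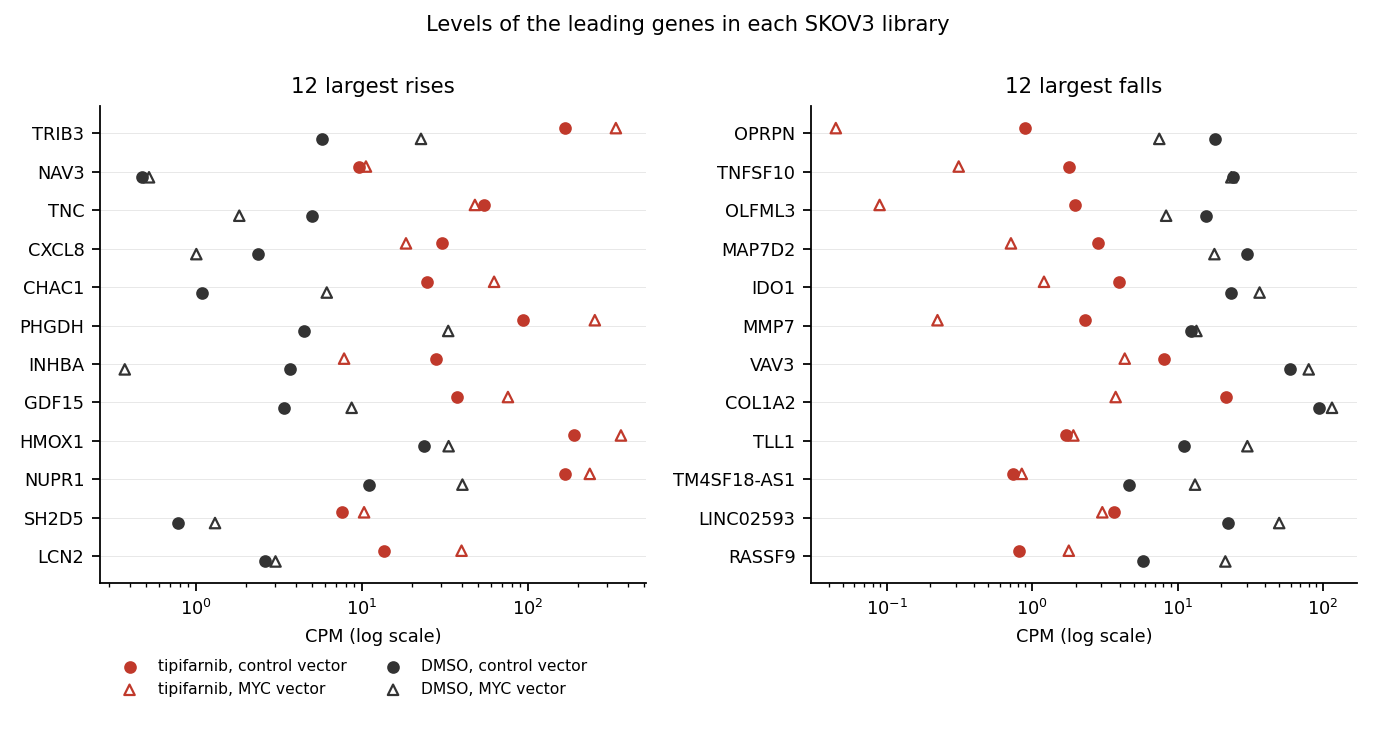
Levels in CPM (log scale) of the 12 genes with the largest rise (left) and the 12 with the largest fall (right) in each of the 4 SKOV3 libraries. Red symbols are tipifarnib libraries and black symbols DMSO libraries, filled circles control-vector and open triangles MYC-vector cells. No gene shown has a red symbol on the far side of a black one, and in OPRPN, TNFSF10, OLFML3 and MMP7 the MYC-vector tipifarnib library is the lowest by a wide margin.

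Among the falls, the opiorphin precursor OPRPN had 0.895 and 0.0447 CPM in tipifarnib, against 18.1 and 7.49 CPM in DMSO, a change of -4.96 ± 0.56 (adjusted p = 0.00152). TNFSF10, the death ligand TRAIL, had 1.79 and 0.313 CPM in tipifarnib, against 23.95 and 23.4 CPM in DMSO, a change of -4.63 ± 0.49. The secreted glycoprotein OLFML3 had 1.98 and 0.0894 CPM in tipifarnib, against 15.8 and 8.35 CPM in DMSO and changed by -3.90 ± 0.55. For these 3 genes the tipifarnib levels rest on few counts, and in each the MYC-vector tipifarnib library was lowest. The microtubule-associated protein MAP7D2 had 2.84 and 0.715 CPM in tipifarnib, against 30.0 and 17.9 CPM in DMSO, a change of -3.86 ± 0.27. IDO1, which breaks down tryptophan, had 3.97 and 1.21 CPM in tipifarnib, against 23.4 and 36.7 CPM in DMSO, a change of -3.61 ± 0.52. Matrilysin (MMP7), a protease, had 2.30 and 0.224 CPM in tipifarnib, against 12.4 and 13.5 CPM in DMSO, a change of -3.55 ± 0.62. Tipifarnib and DMSO libraries did not overlap in any of them.

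VAV3, an exchange factor for small GTPases, had 8.09 and 4.34 CPM in tipifarnib, against 58.9 and 79.8 CPM in DMSO, a change of -3.50 ± 0.35 (adjusted p = 0.000672). The type I collagen chain COL1A2 had 21.5 and 3.75 CPM in tipifarnib, against 93.8 and 115 CPM in DMSO, a change of -3.40 ± 0.57. The tolloid-like protease TLL1 changed by -3.34 ± 0.40, the RAS association domain protein RASSF9 by -3.25 ± 0.31 and the noncoding RNA LINC02593 by -3.31 ± 0.35. The antisense RNA TM4SF18-AS1 changed by -3.32 ± 0.42, a value that is uncertain because the strand setting of the counting is not given in the sources used here. Without the MYC-vector DMSO library TLL1 (adjusted p = 0.0562) and TM4SF18-AS1 (adjusted p = 0.0602) did not pass, and by DESeq2 neither IDO1 (adjusted p = 0.704), TLL1 (adjusted p = 0.144) nor COL1A2 (adjusted p = 0.0979) passed.

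Genes of the integrated stress response rose as a group. In this response, kinases that sense amino acid shortage, heme shortage or misfolded protein slow translation, and the transcription factor ATF4 then induces genes for amino acid supply. Of 31 genes of the list tested 25 rose and 1 fell, against 6.36% and 7.11% of all genes. The list's median change was 1.50, with 1.30 in the control-vector pair and 1.71 in the MYC-vector pair, while the median of all genes was -0.02. ATF4 had 531 and 792 CPM in tipifarnib, against 218 and 360.3 CPM in DMSO, a change of 1.21 ± 0.15 (adjusted p = 0.00109). SLC3A2, the shared heavy chain of several amino acid transporters, had 1026 and 1237 CPM in tipifarnib, against 417 and 320.3 CPM in DMSO, a change of 1.62 ± 0.21. PYCR1, of proline synthesis, had 64.2 and 135 CPM in tipifarnib, against 21.5 and 57.5 CPM in DMSO, a change of 1.40 ± 0.13. Levels of ATF4 and PYCR1 were higher with the MYC vector in each treatment, yet their groups did not overlap. TRIB3, PHGDH and CHAC1, described above, belong to this list too. The number of members that rose was 20 without a control-vector library and 12 without a MYC-vector library.

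Charging enzymes for transfer RNA rose with them. The cytosolic aminoacyl-tRNA synthetases join each amino acid to its tRNA, and several are known ATF4 targets. Of 20 tested 10 rose and 1 fell, with a median of 0.53. The tryptophan enzyme WARS1 had 284 and 348 CPM in tipifarnib, against 77.6 and 131 CPM in DMSO, a change of 1.64 ± 0.18 (adjusted p = 0.000696). AARS1, for alanine, had 608 and 592 CPM in tipifarnib, against 207 and 269 CPM in DMSO and changed by 1.35 ± 0.21, and MARS1, for methionine, had 262 and 335 CPM in tipifarnib, against 96.7 and 127 CPM in DMSO and changed by 1.42 ± 0.22. The isoleucine enzyme IARS1 changed by 1.23 ± 0.16 and the cysteine enzyme CARS1 by 1.42 ± 0.22. In each of the 5 both tipifarnib libraries were above both DMSO libraries, and the change was positive in each vector's pair. Rises numbered 9 without a control-vector library and 6 or 7 without a MYC-vector library.

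Promoter windows of 4 of these genes are shown because they hold the ATF4 letters TGATGNAAN (N is any base, either strand), each from 250 bases before to 50 after a RefSeq start (GRCh38.p14). The windows are chr15:40953221-40953520 on the plus strand for CHAC1, chr1:212565157-212565456 on the plus strand for ATF3, chr16:70289457-70289756 on the minus strand for AARS1 and chr12:57487818-57488117 on the plus strand for MARS1. Capitals mark the match without its last N, read in the gene's direction.
CHAC1: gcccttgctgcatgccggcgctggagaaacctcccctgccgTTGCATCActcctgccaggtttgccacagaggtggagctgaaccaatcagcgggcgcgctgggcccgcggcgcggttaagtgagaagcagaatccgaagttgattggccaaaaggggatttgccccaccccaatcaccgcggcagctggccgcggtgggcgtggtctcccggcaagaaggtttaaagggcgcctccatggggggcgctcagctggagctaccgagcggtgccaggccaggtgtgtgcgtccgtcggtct
ATF3: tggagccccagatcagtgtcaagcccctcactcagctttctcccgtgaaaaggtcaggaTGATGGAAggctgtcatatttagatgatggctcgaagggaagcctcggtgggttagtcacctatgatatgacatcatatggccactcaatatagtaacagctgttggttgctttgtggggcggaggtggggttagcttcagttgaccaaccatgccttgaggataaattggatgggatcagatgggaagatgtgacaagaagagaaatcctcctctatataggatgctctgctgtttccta
AARS1: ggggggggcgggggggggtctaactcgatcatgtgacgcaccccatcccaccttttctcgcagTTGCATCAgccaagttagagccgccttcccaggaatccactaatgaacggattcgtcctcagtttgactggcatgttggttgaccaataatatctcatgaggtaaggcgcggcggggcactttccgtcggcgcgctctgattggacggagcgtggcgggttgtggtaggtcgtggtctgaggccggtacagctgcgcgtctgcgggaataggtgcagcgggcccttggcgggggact
MARS1: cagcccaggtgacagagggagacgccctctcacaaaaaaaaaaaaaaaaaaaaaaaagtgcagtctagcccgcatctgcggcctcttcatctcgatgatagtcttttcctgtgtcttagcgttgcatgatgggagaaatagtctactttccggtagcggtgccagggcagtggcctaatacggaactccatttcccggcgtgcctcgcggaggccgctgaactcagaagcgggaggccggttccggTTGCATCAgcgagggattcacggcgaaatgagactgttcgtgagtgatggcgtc
The first base of the match lies at -209 in CHAC1, -191 in ATF3, -187 in AARS1 and -4 in MARS1 from the start, on the opposite strand in all but ATF3. Of 16 synthetase genes with a window 7 held these letters (43.8%), as did 7 of 25 integrated stress genes (28.0%), against 4.45% of all 27305 genes with a window. Such a match describes the letters and is no evidence of binding.

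In the endoplasmic reticulum, where secreted proteins fold, fewer genes moved. Of 23 chaperone and unfolded protein response genes 6 rose and 3 fell, with a median of 0.14. HERPUD1, of the degradation pathway for misfolded protein, had 138 and 149 CPM in tipifarnib, against 73.0 and 67.1 CPM in DMSO, a change of 1.03 ± 0.12 (adjusted p = 0.000741). XBP1, the transcription factor whose RNA is spliced in that response, changed by 1.07 ± 0.22 (adjusted p = 0.0121), and it did not pass without either MYC-vector library (adjusted p = 0.254). Rises numbered 5 without a control-vector library and 1 without a MYC-vector library, and those that fell 0 without a control-vector library and 0 without a MYC-vector library.

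Sterol genes rose nearly throughout. Of 25 genes of cholesterol synthesis and uptake, the targets of SREBP2, 20 rose and 0 fell, with a median of 1.15. DHCR7, the last step of cholesterol synthesis, had 302 and 366 CPM in tipifarnib, against 50.7 and 118 CPM in DMSO, a change of 2.10 ± 0.22 (adjusted p = 0.000539). ACAT2, which makes acetoacetyl-CoA for the pathway, had 186 and 183 CPM in tipifarnib, against 50.6 and 38.6 CPM in DMSO, a change of 2.06 ± 0.20. The methylsterol oxidase MSMO1 had 408 and 359 CPM in tipifarnib, against 111 and 94.3 CPM in DMSO, a change of 1.90 ± 0.17. The 3 genes had no overlap between treatments, and the vectors differed little within tipifarnib. The squalene epoxidase SQLE had 329 and 334 CPM in tipifarnib, against 118 and 146 CPM in DMSO, a change of 1.34 ± 0.14. The count of members that rose was 14 without a control-vector library and 16 without a MYC-vector library. The sterol response letters TCACNCCAC were in the windows of 1 of 18 cholesterol genes (5.56%) and 1 of 13 fatty acid genes (7.69%), against 1.39% of all genes.

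Fatty acid genes, targets of SREBP1, followed in the same direction. Of 15 tested 11 rose and 0 fell, the median being 0.93, with 1.29 in the control-vector pair and 0.56 in the MYC-vector pair. ACSS2, which makes acetyl-CoA from acetate, had 190.2 and 229 CPM in tipifarnib, against 32.8 and 38.3 CPM in DMSO, a change of 2.56 ± 0.22 (adjusted p = 0.000273). Fatty acid synthase (FASN) had 667 and 829.8 CPM in tipifarnib, against 292 and 521 CPM in DMSO, a change of 0.93 ± 0.15, and the elongase ELOVL6 changed by 1.53 ± 0.15. The desaturase SCD had 558 and 505 CPM in tipifarnib, against 92.5 and 413 CPM in DMSO, so that its DMSO level was already high with the MYC vector, and its change of 1.43 ± 0.41 (adjusted p = 0.0472) did not pass without either control-vector library (adjusted p = 0.347 and 0.349). The members that rose numbered 5 without a control-vector library and 9 without a MYC-vector library.

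Lysosomal and autophagy genes rose in part, 14 of 32 with 1 fall and a median of 0.48. NPC1, which exports cholesterol from lysosomes, had 242 and 229.6 CPM in tipifarnib, against 78.8 and 74.5 CPM in DMSO, a change of 1.62 ± 0.11 (adjusted p = 0.000142). The sialidase NEU1 had 76.1 and 76.4 CPM in tipifarnib, against 31.0 and 22.6 CPM in DMSO, a change of 1.53 ± 0.15, and the autophagy receptor SQSTM1 had 598 and 739.9 CPM in tipifarnib, against 264 and 272 CPM in DMSO, a change of 1.31 ± 0.13. In NPC1 the vectors lay close to each other in both treatments, and in none of the 3 genes did the treatments overlap. WIPI1, of autophagosome formation, changed by 1.55 ± 0.26 (adjusted p = 0.00414) but did not pass without either MYC-vector library (adjusted p = 0.0926 and 0.0986). The CLEAR letters GTCACGTGA, of lysosomal gene promoters, were held by 5 of 22 list genes with a window (22.7%), against 1.01% of all genes. Those 5 changed by 0.57 (MCOLN1), 0.24 (CTSA), 0.19 (ATP6V0D1), -0.03 (LAMP1) and -0.18 (GAA). NPC1, NEU1, SQSTM1 and WIPI1 are not among them. The list members that rose numbered 8 without a control-vector library and 5 without a MYC-vector library.

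Enzymes that make and attach the farnesyl lipid hardly moved. Of 15 prenylation enzymes 1 rose and 0 fell, and changes ran from -0.54 to 1.01 with a median of 0.10. The member that rose was FDPS, the sterol pathway enzyme that makes farnesyl diphosphate, with 62.4 and 67.0 CPM in tipifarnib, against 27.2 and 37.9 CPM in DMSO and a change of 1.01 ± 0.24 (adjusted p = 0.0204). It did not pass when any 1 of the 4 libraries was left out (adjusted p = 0.101 to 0.169). ZMPSTE24, which cleaves CAAX proteins and prelamin A, had 131 and 124 CPM in tipifarnib, against 109 and 89.2 CPM in DMSO, a change of 0.37 ± 0.11 (adjusted p = 0.0587), which passed by DESeq2 (adjusted p = 0.0196) and limma-voom (adjusted p = 0.049). The rate of farnesylation of any protein was not measured, as these are RNA levels.

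Genes for proteins that carry a farnesyl group went both ways. Of 30 tested 4 rose and 5 fell, close to an even split, against 6.36% and 7.11% of all genes. The median was 0.07. RND3, a small GTPase that lowers actin contraction, had 452 and 420.0 CPM in tipifarnib, against 118 and 78.2 CPM in DMSO, a change of 2.18 ± 0.20 (adjusted p = 0.000385). RHOB, another small GTPase, had 186 and 150.4 CPM in tipifarnib, against 98.8 and 82.8 CPM in DMSO, a change of 0.89 ± 0.15, and the phosphatase PTP4A1 had 188 and 216 CPM in tipifarnib, against 107 and 107 CPM in DMSO, a change of 0.92 ± 0.16. RHEBL1, a relative of the mTOR activator RHEB, was low, with 1.36 and 2.06 CPM in tipifarnib, against 0.563 and 0.112 CPM in DMSO, and rose, with a change of 2.39 ± 0.65 (adjusted p = 0.0385). In these 4 genes the treatments did not overlap.

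Those that fell are nuclear lamina and kinetochore proteins. Lamin B1 (LMNB1) had 68.2 and 73.1 CPM in tipifarnib, against 174 and 211 CPM in DMSO, a change of -1.44 ± 0.12 (adjusted p = 0.000267), and lamin B2 (LMNB2) had 373 and 353 CPM in tipifarnib, against 623 and 539 CPM in DMSO, a change of -0.68 ± 0.13. SPDL1, which brings dynein to kinetochores, had 83.7 and 70.6 CPM in tipifarnib, against 214 and 128 CPM in DMSO, a change of -1.11 ± 0.13. The kinetochore proteins CENPF and CENPE changed by -1.02 ± 0.16 and -0.57 ± 0.15. All are also expressed with cell division, whose genes fell as well, and the part of that in these falls was not tested. HRAS and NRAS did not pass: HRAS changed by 0.17 ± 0.16 (adjusted p = 0.552) and NRAS by 0.18 ± 0.12 (adjusted p = 0.345). Without either MYC-vector library RHOB, PTP4A1, RHEBL1, CENPF, CENPE and LMNB2 did not pass (adjusted p = 0.0621 to 0.463), and LMNB2 and CENPE did not pass without either control-vector library (adjusted p = 0.0683 to 0.135). The farnesylated members that rose numbered 5 without a control-vector library and 1 without a MYC-vector library, and those that fell 3 without a control-vector library and 2 without a MYC-vector library.

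Feedback genes of the RAS-ERK pathway rose more often than they fell. These are phosphatases, Sprouty proteins and ETS factors that ERK signalling induces and that restrain or carry it. Of 21 tested 11 rose and 2 fell, with a median of 1.12, and medians of 0.53 in the control-vector pair and 1.82 in the MYC-vector pair. The ERK phosphatase DUSP5 had 73.5 and 84.1 CPM in tipifarnib, against 12.7 and 9.39 CPM in DMSO, a change of 2.85 ± 0.17 (adjusted p = 8.79e-05). DUSP4 had 72.7 and 58.8 CPM in tipifarnib, against 31.9 and 5.22 CPM in DMSO, a change of 2.24 ± 0.41, and the ETS factor ETV5 had 66.5 and 73.8 CPM in tipifarnib, against 27.9 and 14.6 CPM in DMSO, a change of 1.79 ± 0.24. The lowest levels of DUSP4 and ETV5 were in the MYC-vector DMSO library. SPRY2, a Sprouty protein, changed by 1.22 ± 0.24 (adjusted p = 0.01) and did not pass without either MYC-vector library (adjusted p = 0.185 and 0.189). The members that rose numbered 14 without a control-vector library and 3 without a MYC-vector library, so the count rests more on the MYC-vector pair.

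Immediate early genes, which cells switch on within minutes of a stimulus, went both ways at 48 h. Of 26 tested 8 rose and 3 fell, with a median of 0.41. The phosphatase DUSP1 had 65.0 and 70.4 CPM in tipifarnib, against 18.2 and 11.3 CPM in DMSO, a change of 2.23 ± 0.21 (adjusted p = 0.000402), and the AP-1 subunit JUN had 391 and 354 CPM in tipifarnib, against 134 and 68.6 CPM in DMSO, a change of 1.96 ± 0.20. ATF3 had 17.9 and 33.4 CPM in tipifarnib, against 2.90 and 4.81 CPM in DMSO, a change of 2.71 ± 0.45, and did not pass without either MYC-vector library (adjusted p = 0.0726 and 0.0735). BTG2, an antiproliferative gene, had 1.48 and 3.04 CPM in tipifarnib, against 5.89 and 20.6 CPM in DMSO and fell, with a change of -2.43 ± 0.23 (adjusted p = 0.000416). KLF transcription factors had 6 of 14 members up and 0 down. KLF2 had 29.1 and 26.1 CPM in tipifarnib, against 7.15 and 3.24 CPM in DMSO, a change of 2.48 ± 0.29, KLF6 changed by 1.69 ± 0.15 and KLF4 by 2.06 ± 0.25. The immediate early members that rose numbered 6 without a control-vector library and 2 without a MYC-vector library, and the KLF members 5 without a control-vector library and 4 without a MYC-vector library.

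Inflammatory genes rose where they moved. Of 28 NF-kB and inflammatory genes tested 10 rose and 0 fell, with a median of 0.92, or 0.96 once genes at 3 counts or fewer in both treatments are left out and a gene at 0 in 1 treatment is set to its bound against 3 counts. Besides CXCL8, the chemokine CXCL2 had 2.61 and 3.13 CPM in tipifarnib, against 0.520 and 0.261 CPM in DMSO, a change of 2.89 ± 0.39 (adjusted p = 0.00167), and the cytokine LIF had 51.8 and 52.3 CPM in tipifarnib, against 26.3 and 13.98 CPM in DMSO, a change of 1.43 ± 0.23. LIF did not pass without either MYC-vector library (adjusted p = 0.0693 and 0.0696), and the members that rose numbered 8 without a control-vector library and 4 or 5 without a MYC-vector library. The CXCL8 promoter window is shown because, of the 12 largest rises, CXCL8 belongs to this list and its window holds an NF-kB match. It lies at chr4:73740319-73740618 on the plus strand, and capitals mark the NF-kB letters GGAATTTCC, whose first base is at -91.
CXCL8: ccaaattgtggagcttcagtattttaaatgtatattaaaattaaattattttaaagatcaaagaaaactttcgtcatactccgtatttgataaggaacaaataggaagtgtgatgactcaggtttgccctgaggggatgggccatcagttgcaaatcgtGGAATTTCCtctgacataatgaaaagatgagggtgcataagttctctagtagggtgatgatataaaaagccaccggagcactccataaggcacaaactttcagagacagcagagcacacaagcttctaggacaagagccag
In this list 9 of 22 genes with a window held GGAATTTCC on either strand (40.9%), against 0.56% of all genes, and 2 of 22 (9.09%) held the longer NF-kB site searched, against 0.227%. Among these 9 holders NFKBIZ and NFKBIA changed by -0.46 and -0.44, NFKB1 by 0.10 and CXCL1 by 0.24. The others changed by 0.54 (CXCL5) to 3.90 (CXCL8). A match is a description of letters only.

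Oxidative stress genes rose more often than they fell, HMOX1 having the largest rise among those named. Of 25 NRF2 and glutathione genes 13 rose and 1 fell, with a median of 0.57. Thioredoxin reductase (TXNRD1) had 1328 and 1369 CPM in tipifarnib, against 595 and 515 CPM in DMSO, a change of 1.28 ± 0.12 (adjusted p = 0.000385), and ferritin light chain (FTL) had 3564 and 3117 CPM in tipifarnib, against 1931 and 1750 CPM in DMSO, a change of 0.86 ± 0.12. SLC7A11, the cystine transporter, had 598 and 436 CPM in tipifarnib, against 342 and 140.0 CPM in DMSO, a change of 1.22 ± 0.20, and did not pass without either MYC-vector library (adjusted p = 0.0899 and 0.0909). SLC7A11 stood lowest in the MYC-vector DMSO library. The members that rose numbered 9 without a control-vector library and 3 without a MYC-vector library. Of 17 hypoxia genes 6 rose and 1 fell, and 15 had a positive change. The list median was 0.32, with 0.18 in the control-vector pair and 0.58 in the MYC-vector pair. The cause of these changes was not tested. NDRG1 had 576 and 808 CPM in tipifarnib, against 142 and 57.8 CPM in DMSO, a change of 2.91 ± 0.37, and the growth factor VEGFA had 491 and 459 CPM in tipifarnib, against 133 and 106 CPM in DMSO, a change of 2.002 ± 0.26. CA9, the carbonic anhydrase typical of hypoxia, had 0.195 and 0.536 CPM in tipifarnib, against 1.17 and 6.97 CPM in DMSO and fell, with a change of -3.28 ± 0.57 (adjusted p = 0.00511) that did not pass without either MYC-vector library (adjusted p = 0.174 and 0.232).

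Cell division genes fell together. Of 40 mitosis genes 38 fell and 0 rose, all 40 had a negative change, and the median was -0.95, with -0.98 in the control-vector and -0.90 in the MYC-vector pair. Topoisomerase II alpha (TOP2A) had 244 and 243 CPM in tipifarnib, against 699.8 and 646 CPM in DMSO, a change of -1.47 ± 0.13 (adjusted p = 0.000299). The mitotic kinase PLK1 had 54.2 and 66.5 CPM in tipifarnib, against 131 and 152 CPM in DMSO, a change of -1.23 ± 0.12. KIF20A, a motor of cytokinesis, had 34.9 and 27.2 CPM in tipifarnib, against 106 and 119.5 CPM in DMSO, a change of -1.87 ± 0.16. In each of the 3 both tipifarnib libraries lay far below both DMSO libraries. The kinetochore protein NDC80 changed by -1.25 ± 0.13 and the spindle motor KIF11 by -1.19 ± 0.15. The count of falls was 29 without a control-vector library and 24 without a MYC-vector library.

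The PLK1 promoter window, shown because PLK1 is one of these falls and holds the CHR letters, lies at chr16:23678639-23678938 on the plus strand. Capitals mark TTTGAA, the cell cycle element bound by the DREAM and MuvB complexes, with the first base at -29.
PLK1: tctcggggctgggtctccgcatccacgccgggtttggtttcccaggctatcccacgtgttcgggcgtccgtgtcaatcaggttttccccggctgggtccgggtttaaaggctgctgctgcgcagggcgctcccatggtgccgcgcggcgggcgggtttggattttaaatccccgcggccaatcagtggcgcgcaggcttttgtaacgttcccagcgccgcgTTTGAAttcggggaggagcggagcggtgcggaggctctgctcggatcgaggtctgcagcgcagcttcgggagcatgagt
On either strand TTTGAA was held by 24 of 33 mitosis genes with a window (72.7%), against 18.2% of all genes. The letters are short, and a match does not show binding.

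DNA replication genes fell by less. Of 40 tested 29 fell and 0 rose, all 40 had a negative change, and the median was -0.65. The ribonucleotide reductase subunit RRM2 had 55.8 and 62.7 CPM in tipifarnib, against 183 and 139 CPM in DMSO, a change of -1.43 ± 0.15 (adjusted p = 0.000505). Thymidine kinase (TK1) changed by -0.95 ± 0.13, the helicase component GINS1 by -0.89 ± 0.12 and the polymerase subunit POLA1 by -0.83 ± 0.11. Treatments did not overlap in these 4 genes. The falls numbered 13 without a control-vector library and 8 without a MYC-vector library. Of 33 of these genes with a promoter window 6 held the E2F letters TTTGGCGC (18.2%) and 9 held TTTCCCGC (27.3%), against 0.795% and 1.98% of all genes. Of 26 homologous recombination and Fanconi genes 12 fell and 1 rose (3 without a control-vector library and 2 without a MYC-vector library fell). FANCI changed by -0.92 ± 0.13 and RAD51AP1 by -0.999 ± 0.16, the last not passing without either control-vector library (adjusted p = 0.0611 and 0.0634).

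Regulators of entry into S phase went both ways. Of 26 G1 cyclins, CDK inhibitors, E2F and RB genes 3 rose and 7 fell (3 without a control-vector library and 2 without a MYC-vector library rose, 3 without a control-vector library and 3 without a MYC-vector library fell). The CDK inhibitor CDKN1A had 22.9 and 44.2 CPM in tipifarnib, against 5.93 and 3.76 CPM in DMSO, a change of 2.74 ± 0.29 (adjusted p = 0.000567). Another inhibitor, CDKN2C, had 28.7 and 13.1 CPM in tipifarnib, against 105 and 65.0 CPM in DMSO and fell, with a change of -2.08 ± 0.14. The repressor E2F7 had 108 and 144 CPM in tipifarnib, against 35.7 and 26.4 CPM in DMSO and rose by 2.02 ± 0.20, while its close relative E2F8 had 3.42 and 3.17 CPM in tipifarnib, against 14.8 and 17.6 CPM in DMSO and changed by -2.29 ± 0.20. The activator E2F2 changed by -1.46 ± 0.20. Both pairs showed these directions and the groups did not overlap.

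Genes of cell death moved in both directions. The death promoter BBC3 had 10.7 and 17.97 CPM in tipifarnib, against 2.77 and 7.19 CPM in DMSO, a change of 1.596 ± 0.25 (adjusted p = 0.00308), and the TRAIL receptor TNFRSF10B had 207 and 259.6 CPM in tipifarnib, against 103 and 153 CPM in DMSO, a change of 0.88 ± 0.14. In the BCL2 family 4 of 19 rose and 2 fell, and the rises include a gene that opposes death. The death promoter HRK had 7.90 and 8.36 CPM in tipifarnib, against 0.173 and 0.745 CPM in DMSO, a change of 4.20 ± 0.64. The death promoters BMF and BCL2L11 fell, BMF with a change of -1.32 ± 0.27 and BCL2L11 with -0.82 ± 0.18, but neither passed without either MYC-vector library (adjusted p = 0.149 to 0.274) nor BCL2L11 without either control-vector library (adjusted p = 0.115 and 0.119). The BCL2 family members that rose numbered 3 without a control-vector library and 2 without a MYC-vector library, and those that fell 1 without a control-vector library and 0 without a MYC-vector library.

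ERBB2, whose amplification is the hallmark of SKOV3, fell in each pair, as did MIEN1 and GRB7 from the same amplicon. ERBB2 changed by -1.08 ± 0.12 (adjusted p = 0.000733), -1.02 in the control-vector and -1.14 in the MYC-vector pair. The DMSO level with the MYC vector lay below the tipifarnib level with the control vector, so the treatments overlap across vectors but not within a pair. MIEN1 had 650.3 and 252 CPM in tipifarnib, against 1349 and 597 CPM in DMSO, a change of -1.15 ± 0.11, with the same overlap. GRB7, a signalling adaptor, had 9.65 and 5.94 CPM in tipifarnib, against 40.1 and 49.0 CPM in DMSO, a change of -2.53 ± 0.26, and there the treatments did not overlap. The related receptor ERBB4 had 0.934 and 2.28 CPM in tipifarnib, against 2.56 and 16.3 CPM in DMSO, a change of -2.23 ± 0.47 (adjusted p = 0.0123), and ERBB3 had 1.52 and 0.849 CPM in tipifarnib, against 2.38 and 3.99 CPM in DMSO, a change of -1.40 ± 0.38 (adjusted p = 0.0381), both low. HBEGF, a ligand of EGFR and ERBB4, rose instead, with 22.1 and 18.9 CPM in tipifarnib, against 7.49 and 4.03 CPM in DMSO and a change of 1.88 ± 0.18. Of 17 genes of the family with its ligands 2 rose and 7 fell (6 without a control-vector library and 3 without a MYC-vector library fell). ERBB4 and ERBB3 did not pass without either MYC-vector library (adjusted p = 0.3 to 0.549), nor ERBB3 by limma-voom (adjusted p = 0.0661) or in SKOV3 libraries alone (adjusted p = 0.0674).

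Downstream of these receptors, 1 of 19 FOXO and PI3K feedback genes rose and 5 fell. The PI3K regulatory subunit PIK3R1 had 60.4 and 52.8 CPM in tipifarnib, against 112 and 99.0 CPM in DMSO, a change of -0.90 ± 0.11 (adjusted p = 0.00112). The adaptor IRS2 had 31.1 and 19.8 CPM in tipifarnib, against 18.5 and 6.41 CPM in DMSO, a change of 1.16 ± 0.19, and cyclin G2 (CCNG2), a FOXO target, had 29.6 and 19.3 CPM in tipifarnib, against 48.3 and 32.6 CPM in DMSO, a change of -0.73 ± 0.18. IRS2 and CCNG2 did not pass without either MYC-vector library (adjusted p = 0.0652 to 0.233), nor CCNG2 without either control-vector library (adjusted p = 0.128 and 0.133). The falls numbered 3 without a control-vector library and 1 without a MYC-vector library. Among other receptor kinases 2 of 18 rose and 3 fell, against 6.36% and 7.11% of all genes, and no change of the list is read from this. The collagen receptor DDR2 had 19.2 and 22.1 CPM in tipifarnib, against 2.64 and 4.55 CPM in DMSO, a change of 2.56 ± 0.31, and the stem cell factor receptor KIT had 6.23 and 2.06 CPM in tipifarnib, against 31.2 and 8.13 CPM in DMSO, a change of -2.17 ± 0.29 (adjusted p = 0.00272) that did not pass by DESeq2 (adjusted p = 0.785) or without the control-vector DMSO library (adjusted p = 0.0724). The receptor kinases that rose numbered 4 without a control-vector library and 1 without a MYC-vector library, and those that fell 0 or 2 without a control-vector library and 2 without a MYC-vector library.

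ID proteins bind and silence differentiation factors and are induced by BMP signalling, and ID1, ID3 and ID4 fell. ID3 had 5.45 and 6.79 CPM in tipifarnib, against 33.1 and 54.7 CPM in DMSO, a change of -2.81 ± 0.17 (adjusted p = 8.79e-05), ID1 had 127 and 104 CPM in tipifarnib, against 408 and 301 CPM in DMSO, a change of -1.61 ± 0.18, and ID4 had 15.6 and 13.5 CPM in tipifarnib, against 57.4 and 69.1 CPM in DMSO, a change of -2.12 ± 0.22. In all 3 both tipifarnib libraries lay far below both DMSO libraries. INHBA, in the same list, rose as described above. Of 24 TGF-beta, BMP and ID genes 3 rose and 10 fell, with a median of -0.63. The falls numbered 6 without a control-vector library and 6 without a MYC-vector library, and the rises 3 without a control-vector library and 1 without a MYC-vector library.

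Matrix genes fell more often than they rose, and TNC, described above, is one that rose. Of 30 collagens and matrix genes 11 fell and 5 rose (10 without a control-vector library and 6 without a MYC-vector library fell). COL8A1 had 36.7 and 8.27 CPM in tipifarnib, against 254 and 80.5 CPM in DMSO, a change of -3.02 ± 0.15 (adjusted p = 8.79e-05), and COL5A2 had 31.8 and 19.7 CPM in tipifarnib, against 72.0 and 59.5 CPM in DMSO, a change of -1.38 ± 0.13. COL1A1 had 141 and 18.5 CPM in tipifarnib, against 304 and 155 CPM in DMSO, a change of -2.05 ± 0.37, and thrombospondin 1 (THBS1) had 265 and 72.5 CPM in tipifarnib, against 995 and 139 CPM in DMSO, a change of -1.43 ± 0.21. COL5A2 and COL1A1 did not overlap between treatments, although the control-vector tipifarnib library of COL1A1 came close to the MYC-vector DMSO library. COL8A1 levels also parted by treatment, while THBS1 overlapped, its control-vector tipifarnib level being above its MYC-vector DMSO level. Fibroblast and endothelial markers, a list that holds COL1A1 and COL3A1, summed to 143 and 19.6 CPM in tipifarnib and 308 and 165 CPM in DMSO over the 7 genes matched, with CDH5 at 0 in all 4 libraries and DCN at 0 in both tipifarnib libraries. COL1A1 alone held most of each sum, with 141 and 18.5 CPM in tipifarnib and 304 and 155 CPM in DMSO. The sums are therefore no reading separate from the collagen falls, and a part of such cells in them was not tested.

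Proteases, adhesion and shape genes changed one by one. Of 20 matrix protease and plasminogen genes 5 rose and 3 fell (9 without a control-vector library and 1 without a MYC-vector library rose). Tissue plasminogen activator (PLAT) had 65.0 and 76.3 CPM in tipifarnib, against 13.3 and 11.6 CPM in DMSO, a change of 2.499 ± 0.24 (adjusted p = 0.000399), and the collagenase MMP13 had 4.44 and 15.8 CPM in tipifarnib, against 18.2 and 67.2 CPM in DMSO, a change of -2.06 ± 0.21 that missed the threshold without the MYC-vector DMSO library (adjusted p = 0.0502). Of 22 genes typical of mesenchymal cells 6 rose and 3 fell (6 without a control-vector library and 2 without a MYC-vector library rose). The repressors of epithelial genes SNAI2 and ZEB2 rose, SNAI2 with 149.9 and 101 CPM in tipifarnib, against 35.3 and 10.3 CPM in DMSO and a change of 2.67 ± 0.25, and ZEB2 with a change of 1.74 ± 0.29 that did not pass without either MYC-vector library (adjusted p = 0.0576 and 0.0586). Of 21 epithelial genes 3 rose and 5 fell (3 without a control-vector library and 1 without a MYC-vector library rose, 3 without a control-vector library and 2 without a MYC-vector library fell), and the 5 members with the smallest p went both ways. The junction protein CLDN4 had 38.8 and 60.3 CPM in tipifarnib, against 9.40 and 13.6 CPM in DMSO, a change of 2.10 ± 0.22, and CLDN1, of the same family, changed by 1.42 ± 0.30, which did not pass without either MYC-vector library (adjusted p = 0.143 and 0.144). The desmosome protein PKP2 had 12.7 and 8.80 CPM in tipifarnib, against 32.6 and 18.3 CPM in DMSO, a change of -1.21 ± 0.17, and CLDN7 changed by -1.39 ± 0.21, which did not pass without either MYC-vector library (adjusted p = 0.0598 and 0.0621). The tight junction protein TJP3 had 0.0778 and 0.626 CPM in tipifarnib, against 1.52 and 5.14 CPM in DMSO, a change of -3.32 ± 0.45. The integrin ITGB6 had 16.6 and 5.59 CPM in tipifarnib, against 67.0 and 38.8 CPM in DMSO, a change of -2.38 ± 0.28.

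Interferon and antigen presentation genes moved little and mostly down. Of 35 interferon response genes 1 rose and 5 fell, against 6.36% and 7.11% of all genes, with a median of -0.22. OAS3, an antiviral enzyme, had 18.6 and 19.0 CPM in tipifarnib, against 45.6 and 58.2 CPM in DMSO, a change of -1.46 ± 0.24 (adjusted p = 0.00361), and IFIT1 had 4.67 and 0.894 CPM in tipifarnib, against 11.1 and 8.05 CPM in DMSO, a change of -1.95 ± 0.43. The RNA sensor IFIH1 had 3.35 and 4.02 CPM in tipifarnib, against 6.02 and 7.01 CPM in DMSO, a change of -0.82 ± 0.21, BST2 changed by -0.52 ± 0.12 and TRIM22 by -1.67 ± 0.42. None of these 5 passed without either MYC-vector library (adjusted p = 0.0792 to 0.4), and IFIH1 missed the threshold also by limma-voom (adjusted p = 0.0598) and in SKOV3 libraries alone (adjusted p = 0.0569). TRIM22 overlapped between treatments across vectors, and the falls numbered 3 without a control-vector library and 0 without a MYC-vector library. Of 15 genes of MHC class I presentation 3 fell and 0 rose (0 without a control-vector library and 0 without a MYC-vector library fell). HLA-B had 57.8 and 38.1 CPM in tipifarnib, against 93.8 and 60.4 CPM in DMSO, a change of -0.68 ± 0.12 (adjusted p = 0.00591), and the trimming peptidase ERAP2 changed by -0.53 ± 0.12, but neither passed when any 1 library was left out (adjusted p = 0.0566 to 0.187). PSMB9, an immunoproteasome subunit, changed by -0.78 ± 0.24 (adjusted p = 0.0612) and HLA-C by -0.51 ± 0.17 (adjusted p = 0.072), short of the threshold, though both passed in SKOV3 libraries alone (adjusted p = 0.0207 and 0.0245).

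Among partners of MYC, 1 of 12 MAX network genes rose and 2 fell, against 6.36% and 7.11% of all genes. With so few members this is not read as a change of the list. MXD1, a MAX partner that opposes MYC, had 9.49 and 23.3 CPM in tipifarnib, against 3.68 and 3.80 CPM in DMSO, a change of 2.02 ± 0.28 (adjusted p = 0.00175). MXD3 and MXD4, of the same kind, fell: MXD3 had 9.77 and 6.39 CPM in tipifarnib, against 31.9 and 27.5 CPM in DMSO, a change of -1.90 ± 0.19, and MXD4 had 52.1 and 47.4 CPM in tipifarnib, against 84.3 and 83.4 CPM in DMSO, a change of -0.75 ± 0.19. MXD4 did not pass when any 1 library was left out (adjusted p = 0.109 to 0.256), and the falls numbered 1 without a control-vector library and 1 without a MYC-vector library. Housekeeping groups hardly moved, beside the 6.36% of all genes that rose and the 7.11% that fell. Of 39 ribosome biogenesis genes 3 rose and 0 fell, namely RRP9 (0.58 ± 0.12), NOP10 (0.60 ± 0.15) and PNO1 (0.54 ± 0.15), and RRP9 and PNO1 overlapped between treatments across vectors, and none of the 3 passed when any 1 library was left out (adjusted p = 0.0801 to 0.365). Of 50 ribosomal protein genes, whose pseudogenes make counts uncertain, 3 fell and 0 rose. The median was -0.10 there, -0.18 over 32 oxidative phosphorylation genes (3 fell) and -0.03 over 29 proteasome genes (1 rose, 2 fell). In glycolysis 4 of 21 rose and 3 fell. Hexokinase 2 (HK2) had 95.6 and 121 CPM in tipifarnib, against 33.7 and 39.7 CPM in DMSO, a change of 1.55 ± 0.19, while lactate dehydrogenase A (LDHA) had 2630 and 2398 CPM in tipifarnib, against 4684 and 3479 CPM in DMSO, a change of -0.68 ± 0.15 (adjusted p = 0.0143) that did not pass when any 1 library was left out (adjusted p = 0.0578 to 0.136).

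The other lists moved in few members or in both directions. Their counts are to be read against the 6.36% of all genes that rose and the 7.11% that fell. Of stress and nutrient genes 2 of 16 heat shock genes rose and 0 fell, 2 of 23 nucleotide and polyamine synthesis genes rose and 3 fell, and 4 of 12 iron handling genes rose and 3 fell. Among signalling and shape genes 1 of 23 WNT ligand and feedback genes rose and 3 fell, 2 of 26 YAP and SRF target genes rose and 1 fell, and 4 of 19 laminin and integrin genes rose and 1 fell. In the remainder 3 of 15 keratin genes rose and 1 fell, 2 of 22 ABC exporter and xenobiotic enzyme genes rose and 4 fell, 1 of 16 histone genes rose and 3 fell, and 1 of 15 snoRNA host genes rose and 0 fell. Medians of these 10 lists ran from -0.20 to 0.64, with the keratins, intermediate filaments of epithelial cells, at the upper end.

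**Figure D3:**
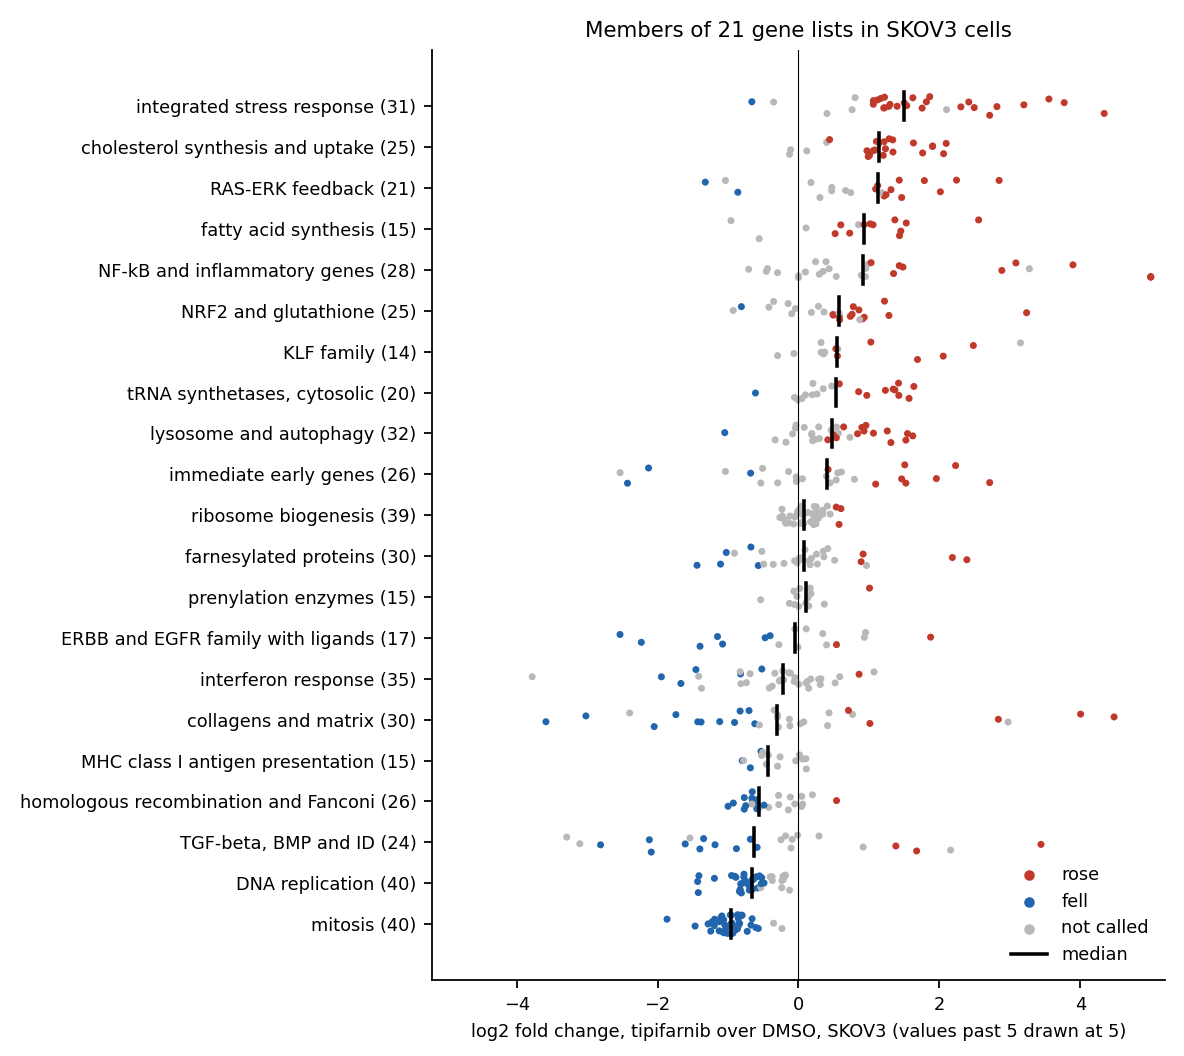
Log2 fold change, tipifarnib over DMSO, of each member of 21 gene lists in SKOV3 cells, with the number of members tested in brackets. Red points rose, blue points fell, grey points did not pass, and black bars are list medians. Integrated stress and cholesterol lists lie to the right, with medians of 1.50 and 1.15, the mitosis list lies wholly to the left, with a median of -0.95, and the farnesylated protein list spreads over both sides.

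The response of SKOV3 was set against that of the other lines, in the same edgeR fit, by testing the SKOV3 change minus the mean of the A549 and MDA-MB-231 changes. This difference passed for 1168 genes, 553 (3.09%) with a higher and 615 (3.43%) with a lower change in SKOV3. The dose was the same in MDA-MB-231 and lower in A549, so dose and line cannot be told apart in the A549 part of it. Differences from MDA-MB-231 alone are given for some genes only, and the counts per list use the mean of both lines. Without the MYC-vector tipifarnib or DMSO library of SKOV3 124 or 108 genes passed, and without the control-vector tipifarnib or DMSO library 660 or 665.

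Amino acid, sterol and tRNA genes stood higher in SKOV3. Among integrated stress genes 11 of 31 passed with a higher and 0 with a lower change, and the list median was 1.50 in SKOV3, 0.11 in A549 and 0.69 in MDA-MB-231. PHGDH changed by 3.55 ± 0.40 in SKOV3, 0.44 ± 0.36 in A549 and 0.14 ± 0.63 in MDA-MB-231, a difference of 3.27 ± 0.54 (adjusted p = 0.0125), and 3.42 from MDA-MB-231 alone (adjusted p = 0.0294). PYCR1 changed by 1.40 ± 0.13, 0.02 ± 0.12 and 0.02 ± 0.12 in the same lines, a difference of 1.38 ± 0.15 (adjusted p = 0.00392). Neither gene changed in the other lines by the test. Of 20 tRNA synthetases 12 passed with a higher change, the medians being 0.53 in SKOV3, -0.23 in A549 and 0.05 in MDA-MB-231. Of 25 cholesterol genes 10 were higher and 1 lower, and of 15 fatty acid genes 7 were higher and 0 lower. Cholesterol medians were 1.15 in SKOV3, 0.03 in A549 and 0.54 in MDA-MB-231. At the same dose 12 of the 25 also rose in MDA-MB-231 and 0 fell, where 1775 of all 17913 genes rose, so a rise was not particular to SKOV3. Fatty acid medians were 0.93, 0.04 and 0.01 in the same lines. FASN changed by 0.93 ± 0.15 in SKOV3, -0.36 ± 0.15 in A549 and -0.30 ± 0.15 in MDA-MB-231, a difference of 1.26 ± 0.18 (adjusted p = 0.00812). Against MDA-MB-231 alone the FASN difference was 1.23 (adjusted p = 0.0137).

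**Figure D4:**
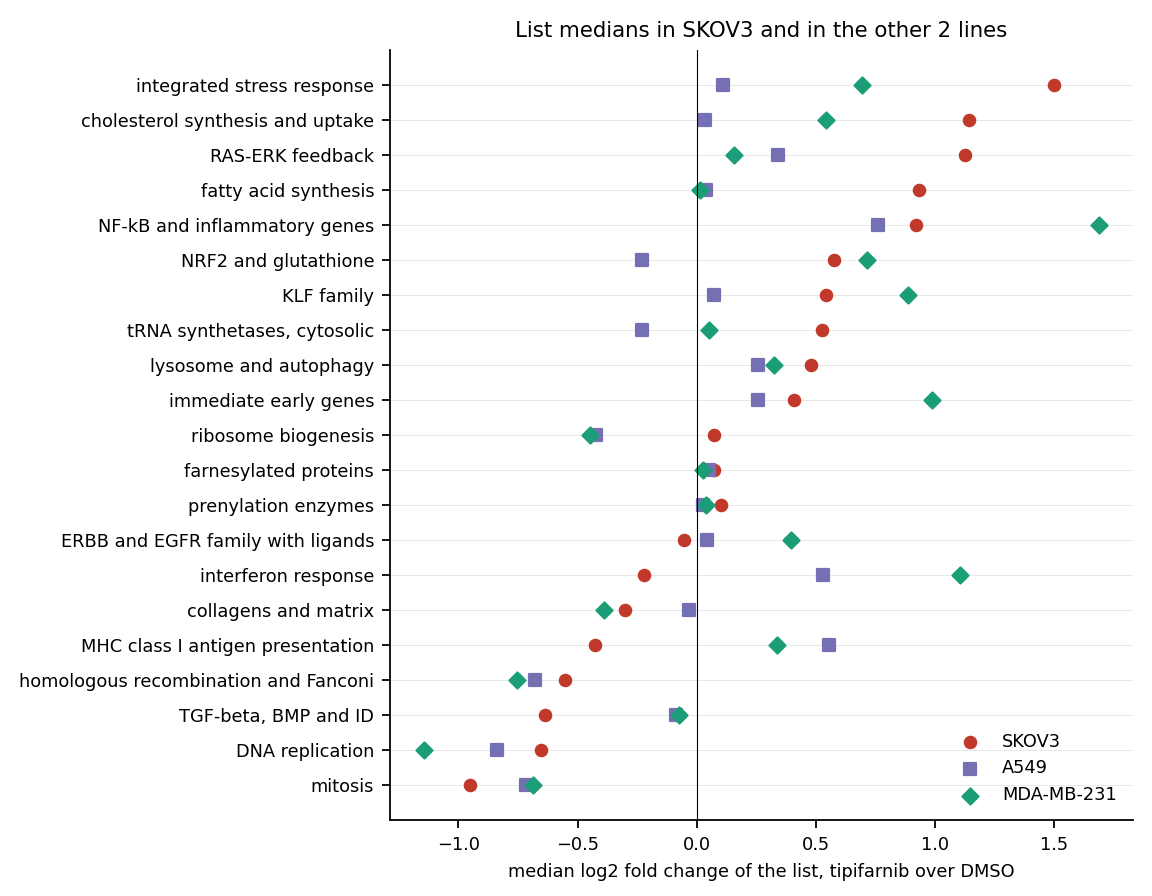
Median log2 fold change, tipifarnib over DMSO, of 21 gene lists in SKOV3 (red circles), A549 (violet squares) and MDA-MB-231 (green diamonds). SKOV3 is farthest right for integrated stress, cholesterol, fatty acid, tRNA synthetase and RAS-ERK feedback genes. It is also farthest right for lysosome, ribosome biogenesis, farnesylated protein, prenylation, DNA replication and homologous recombination genes. It lies on the other side of 0 from both lines for interferon, MHC class I, ribosome biogenesis and ERBB family genes.

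Interferon genes showed the opposite pattern. Of 35 tested, 15 passed with a lower and 0 with a higher change in SKOV3, and the median was -0.22 in SKOV3, 0.53 in A549 and 1.10 in MDA-MB-231. IFIH1 changed by -0.82 ± 0.21 in SKOV3, 1.16 ± 0.23 in A549 and 3.30 ± 0.21 in MDA-MB-231, a difference of -3.06 ± 0.26 (adjusted p = 0.00208) and of -4.13 from MDA-MB-231 alone (adjusted p = 0.000513). Of 15 MHC class I genes 9 passed with a lower change. HLA-C, which had not passed within SKOV3, differed by -1.10 ± 0.21 (adjusted p = 0.0181) and by -1.15 from MDA-MB-231 alone (adjusted p = 0.0235). Ribosome biogenesis genes, flat in SKOV3, had medians of -0.42 in A549 and -0.45 in MDA-MB-231, and 16 of 39 passed with a higher change in SKOV3. Mitosis genes differed in 1 of 40, lower in SKOV3, their medians being -0.95 in SKOV3, -0.72 in A549 and -0.69 in MDA-MB-231.

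ERBB2 changed by -1.08 ± 0.12 in SKOV3, -0.16 ± 0.12 in A549 and 0.07 ± 0.12 in MDA-MB-231, a difference of -1.03 ± 0.15 (adjusted p = 0.00736), and GRB7 differed by -3.04 ± 0.34 (adjusted p = 0.00395). ID3 differed by -2.36 ± 0.20 (adjusted p = 0.00191) and ID1 by -1.32 ± 0.22 (adjusted p = 0.0128). HBEGF differed by 1.69 ± 0.22 (adjusted p = 0.00541), ETV5 by 1.81 ± 0.29 (adjusted p = 0.0118) and RND3 by 1.90 ± 0.24 (adjusted p = 0.00504), all higher in SKOV3. From MDA-MB-231 alone ERBB2 differed by -1.15, GRB7 by -3.50, ID3 by -2.11, ID1 by -1.58, HBEGF by 2.115 and ETV5 by 1.85 (adjusted p = 0.00292 to 0.0154). RHOB rose in all 3 lines, by 0.89 ± 0.15 in SKOV3, 1.39 ± 0.15 in A549 and 3.23 ± 0.17 in MDA-MB-231, a difference of -1.42 ± 0.19 (adjusted p = 0.00541), so that its rise was smaller in SKOV3. PLK1, by contrast, changed by -1.23 ± 0.12 in SKOV3, -1.10 ± 0.12 in A549 and -1.05 ± 0.12 in MDA-MB-231, and its difference of -0.16 ± 0.14 did not pass (adjusted p = 0.572).

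**Figure D5:**
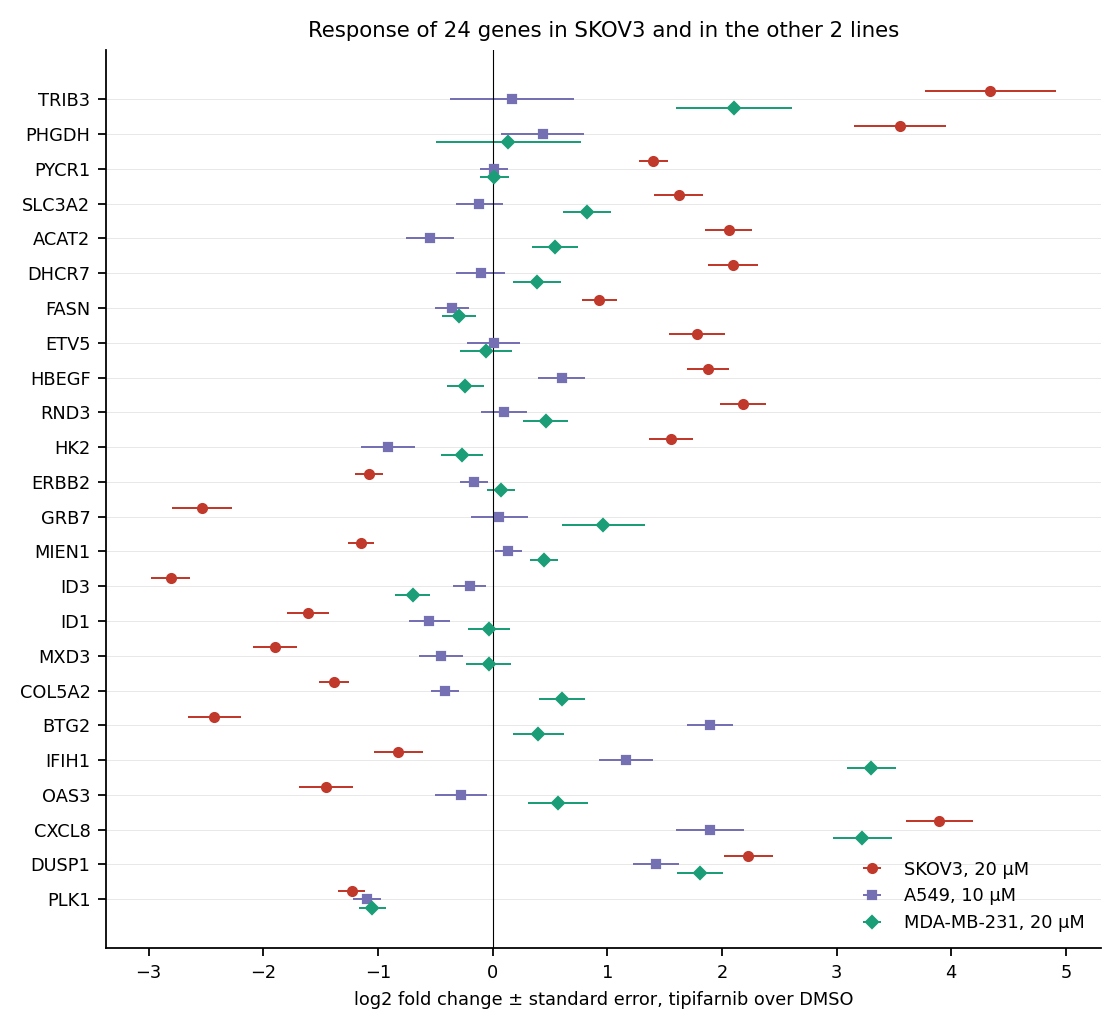
Log2 fold change, tipifarnib over DMSO, with its standard error for 24 genes in SKOV3 (red circles, 20 µM), A549 (violet squares, 10 µM) and MDA-MB-231 (green diamonds, 20 µM). TRIB3 to HK2 lie farthest right in SKOV3, ERBB2 to OAS3 lie farthest left, and CXCL8, DUSP1 and PLK1 lie on 1 side of 0 in all lines.

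Among genes with a mean of at least 1 on the log2 CPM scale over the SKOV3 libraries, TNC led those with a higher change in SKOV3, with 4.22 ± 0.38 (adjusted p = 0.00216), before NAV3, PHGDH, TRIB3, SH2D5, G0S2 and FZD8. The WNT receptor FZD8 had 20.2 and 23.6 CPM in tipifarnib, against 5.24 and 1.86 CPM in DMSO, a change of 2.72 ± 0.33 and a difference of 2.46 ± 0.38. SYT16, a synaptotagmin, had 25.3 and 16.5 CPM in tipifarnib, against 20.8 and 13.8 CPM in DMSO, its change of 0.26 ± 0.23 (adjusted p = 0.511) in SKOV3 did not pass, and both A549 tipifarnib libraries were at 0, so that no size is given for its difference. That level was asked of SKOV3 only, and of the 8 genes at the other end 7 were hardly measured in MDA-MB-231. TNFSF10, the kinases SGK2 and ROS1, CAMK2B and the ectonucleotidase ENTPD2 were at 0 in both MDA-MB-231 DMSO libraries and at most at 0.365 CPM with tipifarnib there, so no size of their difference is given. MAP7D2 and the cadherin CDH3 did not exceed 0.398 CPM in any MDA-MB-231 library, and their differences of -4.26 ± 0.47 and -4.22 ± 1.08 rest on few counts in that line. Within SKOV3, SGK2 had 3.54 and 3.71 CPM in tipifarnib, against 16.1 and 33.2 CPM in DMSO, and ROS1 had 4.47 and 6.39 CPM in tipifarnib, against 16.2 and 42.6 CPM in DMSO, both without overlap. ENTPD2 did not pass there without either MYC-vector library (adjusted p = 0.19 and 0.206), nor ROS1 without the MYC-vector DMSO library (adjusted p = 0.0638). CAMK2B and CDH3 did not pass within SKOV3 (adjusted p = 0.0523 and 0.0768) but passed by limma-voom (adjusted p = 0.0151 and 0.0391). IFIT1, the other leading gene, differed by -4.24 ± 0.54 (adjusted p = 0.00497).

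Whether the response differed between MYC-vector and control-vector SKOV3 cells was tested with 1 added term. Each arm is 1 library and SKOV3 leaves no spread of its own, so SKOV3 is assumed to vary like the other 2 lines, and the p-values compare these libraries. The term passed for 7 genes (0.0391% of 17913), and 920 had an unadjusted p under 0.05. DESeq2 called 57 genes, and limma-voom called 0, with 1072 at an unadjusted p under 0.05. Of the 7, 6 had the higher change with the MYC vector. The surface nucleotidase NT5E had 108 and 130.0 CPM in tipifarnib, against 75.9 and 11.1 CPM in DMSO, a difference of 3.04 ± 0.25 (adjusted p = 0.00602), and the aminopeptidase ANPEP had 108 and 223 CPM in tipifarnib, against 156 and 42.5 CPM in DMSO, a difference of 2.93 ± 0.36. In both the MYC-vector DMSO library stood apart as the lowest. G0S2, an inhibitor of fat breakdown, showed the same pattern, with 137 and 335 CPM in tipifarnib, against 56.1 and 21.1 CPM in DMSO and a difference of 2.70 ± 0.29, and DUSP4 had 2.31 ± 0.26. SCD was the one gene with the lower change under MYC, at -2.30 ± 0.24 (adjusted p = 0.0243), and there the control-vector DMSO library was lowest. Over both vectors, NT5E and G0S2 rose, NT5E by 1.96 ± 0.55 (adjusted p = 0.0413) and G0S2 by 2.62 ± 0.50 (adjusted p = 0.00794), while ANPEP (adjusted p = 0.315) did not pass. NT5E did not pass without either MYC-vector library (adjusted p = 0.168 and 0.172) or by DESeq2 (adjusted p = 0.056).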

How the data were processed

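RNA of 12 libraries was sequenced, 4 of them from SKOV3. Per the labels' protocols libraries were made with a SMARTER mRNA kit. The deposited values are read counts per gene, raw and unnormalized, and TopHat2, HTSeq, DESeq2 and the hg19 build are named in the submitters' processing notes, without versions. The table had 57820 genes, 33136 of them with counts, and 5 counter summary rows, which held 19.4% to 19.9% of each SKOV3 library and stayed out of library sizes. Gene symbols were matched for 39538 IDs.

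Genes were tested with the quasi-likelihood test of edgeR 4.0.16 (R 4.3.3) after TMM scaling and filterByExpr over line and treatment, which left 17913 genes. The model held, for each line, a MYC vector effect and a tipifarnib effect, with 3 residual degrees of freedom. The pairing of tipifarnib and DMSO libraries comes from the labelled vector; same-vector SKOV3 libraries deviated together (r = 0.64 across genes). The difference between vectors added 1 coefficient and left 2 degrees of freedom. P-values were adjusted by Benjamini-Hochberg over all genes. CPM used TMM library sizes, and changes within a pair used log2 CPM with a prior count of 2. Precision is limited by 1 library per vector and treatment. The scripts were tested on simulated data. Alternatives used DESeq2 1.42.0 and limma-voom (limma 3.58.1), other filters, no vector term and fewer libraries.

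The text names MYC, FNTA and FNTB, the 12 largest rises and falls, up to 5 genes per list by p, the 8 largest differences each way from the other lines and up to 4 each way between vectors, all leading genes having a mean of at least 1 on the log2 CPM scale over SKOV3 libraries. Promoter windows were chosen among them for their motif match. Members and the 46 gene lists and 5 marker lists were chosen with earlier results of these data known. Of the genes on these lists 10 matched no symbol and 28 fell below the filter. Some genes and 1 list are not reported here.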

Additional observations from a re-analysis of the deposited data

Results flagged for a closer look

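The response of SKOV3 differed from the mean response of A549 and MDA-MB-231, by the edgeR contrast of the difference, in the following named genes. Genes at 0 counts in both libraries of a treatment in another line are left out, since no size can be given. Values are log2 differences, SKOV3 minus the other lines, at an adjusted p under 0.05. The mean takes in A549 at its lower dose, and some genes listed did not pass against MDA-MB-231 alone. HMOX1 rose by 3.24 in SKOV3 and 3.58 in MDA-MB-231, a difference of -0.34 (adjusted p = 0.5), while its A549 change was -0.01. ATF4, AARS1, MARS1, CARS1, HERPUD1, DDR2, KLF4, CDKN2C and CDH3 also did not pass against MDA-MB-231 alone (adjusted p = 0.053 to 0.159). Stress, amino acid and tRNA genes with a higher change in SKOV3 were TRIB3 (3.20), PHGDH (3.27), SLC3A2 (1.27), PYCR1 (1.38), ATF4 (0.80), AARS1 (1.36), IARS1 (1.32), MARS1 (1.23), CARS1 (1.22), WARS1 (1.06), HERPUD1 (0.63), HMOX1 (1.45) and SLC7A11 (1.26). Sterol, fatty acid and lysosomal genes with a higher change were ACAT2 (2.06), DHCR7 (1.96), SQLE (0.88), ACSS2 (1.52), ELOVL6 (1.46), FASN (1.26), NPC1 (0.54) and NEU1 (0.94). Signalling and transcription genes with a higher change were DUSP4 (2.22), DUSP5 (1.27), ETV5 (1.81), HBEGF (1.69), IRS2 (1.31), JUN (1.09), KLF4 (1.40), E2F7 (2.09), ZEB2 (1.75), DDR2 (1.85), FZD8 (2.46), SH2D5 (2.68), RND3 (1.90), PTP4A1 (0.96) and ZMPSTE24 (0.78). Other genes with a higher change were TNC (4.22), NAV3 (3.32), G0S2 (2.66), HK2 (2.15), NDRG1 (1.96), PLAT (1.81), VEGFA (1.45), CLDN4 (1.15), PNO1 (0.99), RRP9 (0.86) and NOP10 (0.76). Interferon and MHC class I genes with a lower change were IFIT1 (-4.24), TRIM22 (-3.93), IFIH1 (-3.06), OAS3 (-1.61), BST2 (-1.11), PSMB9 (-1.47), HLA-C (-1.10), ERAP2 (-1.08) and HLA-B (-1.02). Growth signalling and growth control genes with a lower change were GRB7 (-3.04), MIEN1 (-1.44), ERBB2 (-1.03), ID3 (-2.36), ID1 (-1.32), MXD4 (-1.85), MXD3 (-1.66), BTG2 (-3.57), CDKN2C (-0.77), CCNG2 (-1.87), PIK3R1 (-0.75) and KIF20A (-1.02). Other genes with a lower change were MAP7D2 (-4.26), CDH3 (-4.22), LINC02593 (-4.03), TJP3 (-4.16), CLDN7 (-1.76), PKP2 (-0.95), ITGB6 (-3.15), BMF (-2.57), COL5A2 (-1.48) and RHOB (-1.42). MAP7D2, ITGB6 and CDH3 were under 0.4 CPM in every MDA-MB-231 library, so that their values rest on few counts. LINC02593 was at most at 0.868 CPM in that line, and DDR2 and BST2 were at most at 0.772 and 1.24 CPM in A549. In A549 CDH3 passed 0.631 CPM only in the MYC-vector tipifarnib library, at 7.49 CPM. Other genes listed may be low in a line too.

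Between MYC-vector and control-vector SKOV3 cells the edgeR term for a difference in response passed in the named genes that follow, while limma-voom called 0 genes. The log2 differences, MYC vector minus control vector, were 3.04 for NT5E, 2.93 for ANPEP, 2.70 for G0S2, 2.31 for DUSP4 and -2.30 for SCD. Each compares 4 single libraries, and its spread is taken from the other lines. No group of SKOV3 libraries was large enough to look for a sample far from the others.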

How the results depend on the processing

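Of the 145 named genes that changed in SKOV3, 136 kept their call under all 5 changes of scaling, tool or filter, 143 in SKOV3 libraries alone, 145 without A549 and 137 without MDA-MB-231, and 103 to 128 when 1 SKOV3 library was left out. Vectors pair the libraries by label, and the model without that replicate block called 288 genes for tipifarnib, against 2414 with it, and kept 54 of the 145. It called 0 genes for SKOV3 minus the other lines (1983 at an unadjusted p under 0.05), against 1168. Leaving out 1 SKOV3 library gave 502 to 1471 and 108 to 665 calls. Each such fit rests on the 1 SKOV3 pair left, so either library of a vector gives nearly the same test. That pair is then assumed to vary like the other lines. Without a low count filter SKOV3 minus the other lines gave 2285 calls and the vector difference 198, against 7, and DESeq2 gave 57 and limma-voom 0 for the vector difference. No paired analysis was possible for the vector difference, because it compares the pairs themselves, nor could it be fitted without 1 SKOV3 library. Over the leave-one-out fits ANPEP ran from -0.53 to 2.39 and HRAS from -0.0188 to 0.352, neither called for tipifarnib with all libraries, and both were negative without either MYC-vector library. The cause of these shifts was not tested.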
